A study of Mus musculus with 8 samples.

Results

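The 39 Hox genes of the mouse were described in RNA-seq counts of mesenchymal stem cells (MSCs, stromal cells able to give rise to bone, cartilage and fat) cultured at low or at atmospheric oxygen. Members were taken by symbol, as every gene named Hoxa, Hoxb, Hoxc or Hoxd followed by a number, which gave 39 of the 53465 gene identifiers in the count table. The labels call the cells bone-marrow MSCs, and the study describes growing them from digested fragments of the hind-limb bones of C57BL6/N mice aged 3 to 5 months, with no genetic alteration. They were sorted as CD45-/Ter-119-/Sca-1+/CD140a+ cells, on day 12 per the labels. The labels give 4 samples at 2% O2 (hypoxia) and 4 at 21% O2 (normoxia), all at 5% CO2 and numbered 1 to 4. The study describes growing all cells at 2% O2 until the sort and dividing the sorted population between the conditions, so that samples with the same number were treated as pairs in a second fit. Log2 changes are normoxia minus hypoxia, CPM is the count scaled to a TMM-adjusted library of 1e6 counts, and n = 4 per group throughout.

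Hox genes encode homeodomain transcription factors that lie in 4 clusters, HoxA to HoxD, in which gene order follows the order of expression along the body axis. Low-numbered paralog groups act toward the head, and the highest groups act at the posterior end of the trunk and in the distal limb. Stromal cells of adult bone keep much of the Hox pattern of the place in the embryo from which they came, and Hox genes of the posterior groups are known for their part in the patterning of limb bones.

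Total counts ranged from 12898291 to 25132141, with hypoxia replicate 1 the deepest, and 3 counts corresponded to between 0.125 and 0.241 CPM, the floor below which no level is claimed. This floor covers counting error only. All 12 MSC and stromal markers passed the filter on low counts, erythroid markers summed to at most 0.231 CPM and endothelial markers to at most 2.65 CPM. Blood and macrophage markers were present in spite of the CD45 gate, at 590 to 1295 CPM in sum. The labels number the samples but do not name animals, and p-values measure the spread between these samples.

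The clusters lie on chromosomes 6 (HoxA, 11 genes, GRCm38 positions 52155590 to 52260880), 11 (HoxB, 10 genes, 96194316 to 96368256), 15 (HoxC, 9 genes, 102921103 to 103036852) and 2 (HoxD, 9 genes, 74668310 to 74765142). Of the 39 genes, 33 had more than 3 counts in at least 1 sample. Hoxb1, Hoxb13, Hoxd1 and Hoxd12 had 0 counts in all 8 samples, and Hoxb2 and Hoxd3 never exceeded 3 counts. The filter kept 28 genes for testing, namely 9 of 11 in HoxA, 6 of 10 in HoxB, 9 of 9 in HoxC and 4 of 9 in HoxD. The 28 tested genes are those with enough counts and do not stand for all 39.

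The sequences printed here are the 250 bases upstream of annotated starts of Hoxa10 and Hoxd8, since these genes were among those that differed between the oxygen levels. They were taken from RefSeq on the GRCm38.p6 build, which held such windows for 22 of the 39 genes (24 windows). Both starts of Hoxa10, on the minus strand of chromosome 6, are shown, the proximal at chr6:52234940-52235189, within an intron of the longer Hoxa10 transcript, and the distal at chr6:52240855-52241104, outside any annotated gene. The Hoxd8 window, chr2:74704365-74704614 on the plus strand, lies outside annotated exons and within an intron of the transcript Hoxd3os1. Capitals mark matches, on either strand, to GCGTG or to CCAAT, and no match overlaps another.
Hoxa10 proximal: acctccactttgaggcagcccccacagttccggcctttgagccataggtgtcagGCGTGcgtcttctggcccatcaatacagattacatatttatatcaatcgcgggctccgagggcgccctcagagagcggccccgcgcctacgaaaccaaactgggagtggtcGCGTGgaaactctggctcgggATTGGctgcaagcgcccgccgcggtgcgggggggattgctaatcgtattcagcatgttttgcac
Hoxa10 distal: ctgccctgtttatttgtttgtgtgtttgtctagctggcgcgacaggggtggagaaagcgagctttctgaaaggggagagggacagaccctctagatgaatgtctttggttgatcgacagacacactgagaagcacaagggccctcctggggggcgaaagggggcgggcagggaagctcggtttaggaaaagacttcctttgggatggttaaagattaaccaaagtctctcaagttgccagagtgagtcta
Hoxd8: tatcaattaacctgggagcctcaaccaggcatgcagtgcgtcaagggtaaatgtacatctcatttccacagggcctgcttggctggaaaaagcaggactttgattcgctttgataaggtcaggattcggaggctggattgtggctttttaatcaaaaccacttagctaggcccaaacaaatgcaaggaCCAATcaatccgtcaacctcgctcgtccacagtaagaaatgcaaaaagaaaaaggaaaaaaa

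Letters searched in all windows were ACGTG and GCGTG, the cores of hypoxia response elements, CCAAT, the CCAAT box, and TGATTNAT, a composite of HOX and PBX sites. The proximal Hoxa10 window held GCGTG at 2 places and CCAAT, as its reverse complement, at 1 place, and the Hoxd8 window held CCAAT at 1 place. The distal Hoxa10 window held none of the 4 motifs. ACGTG was found in 5 of 24 Hox windows (20.8%) and in 16.6% of all 32851 windows, and GCGTG in 7 of 24 (29.2%) against 28.2%. CCAAT was in 14 of 24 Hox windows (58.3%) against 33.9% of all windows, and TGATTNAT in 2 of 24 (8.33%) against 2.82%. The Hox windows were richer in G and C, with a median of 58.6% against 52.4%, and these shares were not adjusted for it. A match describes letters only and is not a site.

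**Figure D1:**
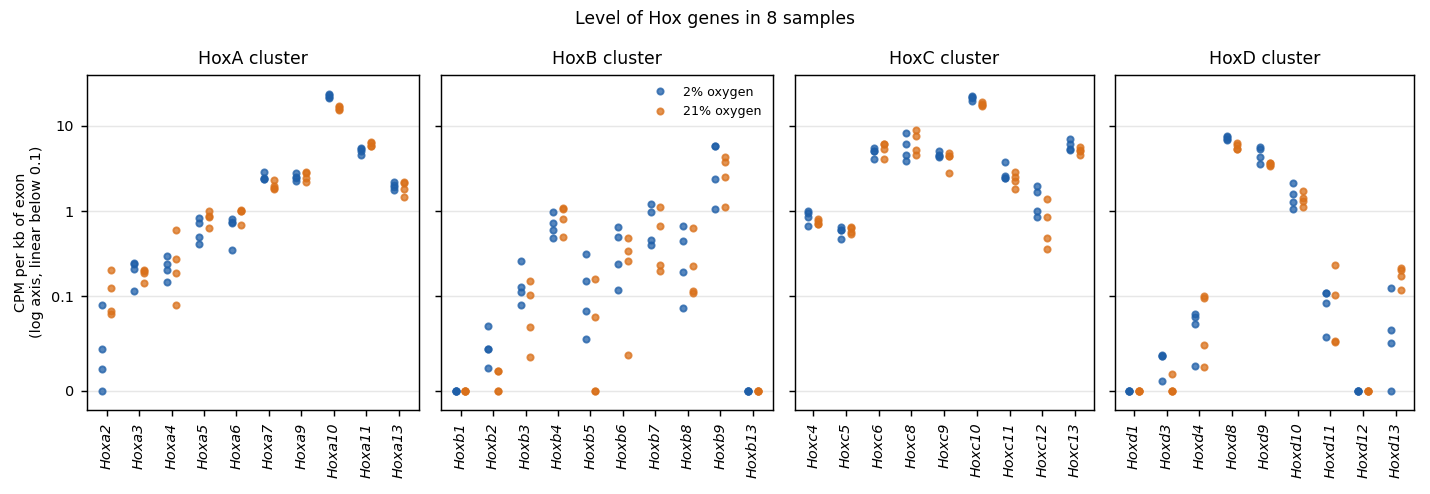
Level of Hox genes, in CPM per kb of exon on a log axis that is linear below 0.1, in the 4 samples at 2% oxygen (blue) and the 4 at 21% oxygen (orange), arranged by cluster and by paralog number. Hoxc10 (mean 19.6) and Hoxa10 (mean 19.3) stand above the rest, and the levels of the low-numbered genes and of much of HoxB lie below 1.

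Posterior Hox genes made up most of the Hox expression of these cells. Compared per kb of exon, Hoxc10 and Hoxa10, of paralog group 10, which patterns the upper leg bones, were the most abundant, at 19.6 ± 2.06 and 19.3 ± 3.28 CPM per kb (SD, n = 8). Their ranges over the 8 samples, 17.0 to 22.7 and 15.5 to 23.3, overlapped, so that no order between them is given. Among the genes tested, their mean CPM per kb stood at the 85.1 and 84.8 percentiles.

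Well below these 2 genes came Hoxd8 (6.47 ± 0.850 CPM per kb), Hoxc8 (6.14 ± 1.88), Hoxa11 (5.62 ± 0.591), Hoxc13 (5.53 ± 0.739) and Hoxc6 (5.16 ± 0.788). Hoxc9 (4.36 ± 0.674), Hoxd9 (4.13 ± 0.898) and Hoxb9 (3.35 ± 1.89), of paralog group 9, followed, and neighbours in this series lay within their spread of each other. The order depends on the length used, since per kb of the longest transcript Hoxc6 was at 7.86, above Hoxd8 (6.74), and Hoxa9 was at 4.39 in place of 2.54. In all, 16 genes had a mean of at least 1 CPM per kb. Hoxb9 was the only gene of HoxB among them, whereas HoxA held 5, HoxC 7 and HoxD 3.

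Grouped by paralog number, groups 9 to 13 held 74.4 ± 2.81% of the summed Hox CPM per kb in hypoxia and 71.3 ± 2.66% in normoxia. Groups 5 to 8 held 22.6 ± 2.56% and 25.2 ± 2.59%, and groups 1 to 4 held 3.01 ± 0.276% and 3.54 ± 0.354%. The ranges of the oxygen groups were not tested against each other for these shares. Paralog group 10 alone held 40.9% on average, between 37.5% and 44.5% in the 8 samples.

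The pattern was not uniform at the posterior end. In HoxA, Hoxa13, which patterns the digits and the urogenital tract, was measured at 1.94 ± 0.259 CPM per kb. In HoxC, Hoxc13, known for its part in hair and nails, was at 5.53, and Hoxc12, next to it, at 1.07 ± 0.556. In HoxD, Hoxd12 had no count and Hoxd13, a distal limb gene, had at most 0.528 CPM, while Hoxd8 and Hoxd9, of the middle of the cluster, were the highest. In HoxB, Hoxb13 had no count.

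Hindlimb factors were read beside the Hox genes. Pitx1, which specifies the hindlimb, was at 18.3 CPM per kb and Tbx4, which is active in hindlimb buds, at 4.76. Tbx5, the forelimb factor, was at 0.288 CPM per kb, with 4 to 34 counts a sample, and Isl1, the third hindlimb gene of the list, which acts early in the limb field, was lower, at 0.169 CPM per kb with 3 to 20 counts a sample. The 3 hindlimb genes thus lay on both sides of Tbx5.

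The summed Hox counts were a small part of each library, 0.0229% to 0.0278%. They came to 268, 288, 267 and 259 CPM in the hypoxia samples and to 242, 249, 228 and 223 CPM in the normoxia samples. On this TMM-scaled measure every hypoxia sample was above every normoxia sample, but as a share of the counts hypoxia replicate 1 (0.0255%) was below normoxia replicate 2 (0.0257%), so that the groups overlapped. The HoxA sum was 112, 118, 117 and 117 CPM in hypoxia and 97.3, 95.7, 96.9 and 102.7 CPM in normoxia, and Hoxa10 alone made up most of it.

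The HoxC sum was 106, 113, 103.5 and 99.5 CPM in hypoxia and 101.7, 108, 94.7 and 86.4 CPM in normoxia, so that the groups overlapped. For HoxD, the sums were 28.9, 33.3, 35.1 and 36.3 CPM in hypoxia and 27.6, 25.9, 25.8 and 28.8 CPM in normoxia. The ranges lay next to each other, with hypoxia replicate 1 and normoxia replicate 4 nearly equal. HoxB was the smallest cluster and the most variable, at 20.6, 24.1, 11.2 and 6.01 CPM in hypoxia and 15.1, 19.0, 10.9 and 4.97 CPM in normoxia. In both groups the samples numbered 1 and 2 were above those numbered 3 and 4. Compared within pairs, the sums of all 4 clusters were lower in normoxia in 4 of 4 pairs, and these sums were not tested. In bulk samples such as these, fewer cells of a type and less RNA per cell cannot be told apart.

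**Figure D2:**
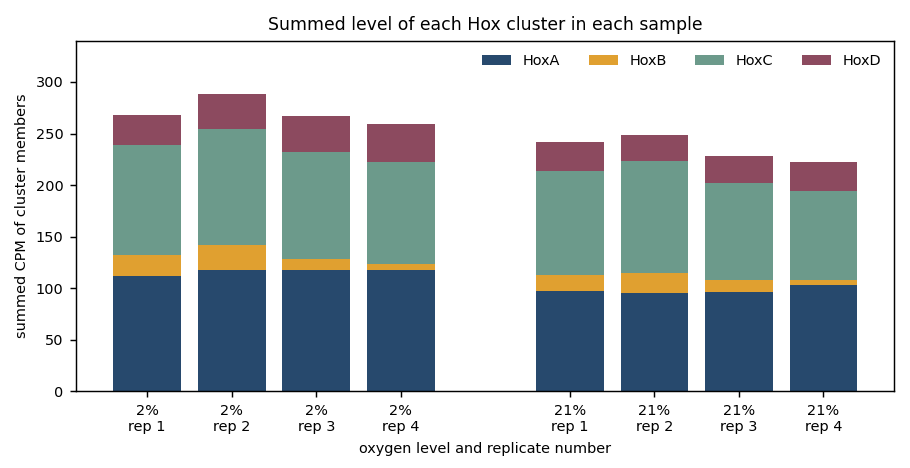
Summed CPM of the members of each Hox cluster, stacked, in each of the 8 samples, with 2% oxygen on the left and 21% oxygen on the right. The whole bars run from 259 to 288 CPM at 2% oxygen and from 223 to 249 CPM at 21% oxygen, and the HoxB layer shrinks in the samples numbered 3 and 4 of both groups.

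To ask which Hox genes differ between the oxygen levels, the 28 tested genes were compared with limma-trend, with Benjamini-Hochberg adjustment over all 14369 genes tested. Hoxa10, Hoxc10, Hoxd8 and Hoxd9 fell in normoxia, 4 of 28, and 0 rose (limma-trend, with 0 by edgeR, 0 by DESeq2 and 1, Hoxa11, at an unadjusted p under 0.05). Of all genes tested, 34.6% passed the same threshold of 0.05, 16.5% as lower and 18% as higher in normoxia, so that the share of Hox genes that passed (14.3%) was below that of all genes, and the share that fell was near it. Among the 11313 tested genes whose mean log2 CPM lay within the range of the tested Hox genes, 30.2% passed. The median log2 change of the tested Hox genes was -0.18, with 18 of 28 below zero, against 0.0049 for all genes tested.

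Hoxa10, which patterns the upper leg bones and lies at positions 52231197 to 52240854 of chromosome 6 on the minus strand, gave the clearest difference. It had 68.8, 71.9, 74.4 and 76.3 CPM in hypoxia replicates 1 to 4 and 52.1, 54.4, 50.8 and 56.4 CPM in normoxia. All 4 normoxia samples were below all 4 hypoxia samples, and the gene was lower in 4 of 4 pairs. The log2 change was -0.45 (SE 0.061, 95% interval -0.58 to -0.31, limma-trend adjusted p = 0.000285), a fall of 26.6%. Hoxa10 shares no exon bases with another annotated gene.

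Hoxc10, the paralog of Hoxa10 in the HoxC cluster, had 40.4, 43.2, 41.6 and 37.1 CPM in hypoxia and 34.4, 36.4, 33.8 and 32.5 CPM in normoxia. The groups did not overlap, but the nearest samples differed by less than 1 CPM. The log2 change was -0.24 (SE 0.071, limma-trend adjusted p = 0.0194). Of its exon bases, 8.70% are shared with Hoxc5. Hoxd10, the third member of this paralog group, was low, at 2.75 ± 0.834 CPM in hypoxia and 2.52 ± 0.453 CPM in normoxia, and its log2 change of -0.09 had a 95% interval from -0.57 to 0.39, which holds the changes of both paralogs.

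Hoxd8, a gene of the middle of the HoxD cluster, had 18.5, 20.3, 20.8 and 19.1 CPM in hypoxia and 17.5, 14.8, 14.8 and 16.4 CPM in normoxia. The groups did not overlap, and the difference was smallest between the samples numbered 1. The log2 change was -0.31 (SE 0.088, limma-trend adjusted p = 0.0168). With GC content and length removed it was -0.17 and did not pass (limma-trend adjusted p = 0.167), nor did it when the block was added (0.109). Hoxd9, its neighbour toward the posterior end, had 7.65, 9.31, 11.3 and 12.2 CPM in hypoxia and 7.28, 7.42, 7.72 and 7.76 CPM in normoxia. Here hypoxia replicate 1 lay within the normoxia range, and the log2 change of -0.39 (SE 0.142) passed barely, with a limma-trend adjusted p of 0.0498. It passed in 8 of 26 alternatives and missed in edgeR (adjusted p = 0.0502), in limma-voom (0.114) and with GC content and length removed, where the log2 change was -0.16 (limma-trend adjusted p = 0.381).

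With the replicate number as a block, 6 of 28 Hox genes (21.4%) passed, against 46% of all genes tested. The genes added were Hoxa7, of the middle of HoxA (limma-trend adjusted p 0.0614 without the block and 0.033 with it), and Hoxc12 (0.117 and 0.0173), both lower in normoxia. Hoxa7 had 7.06, 6.90, 8.27 and 6.78 CPM in hypoxia and 5.27, 5.33, 6.64 and 5.65 CPM in normoxia, without overlap, and 20.4% of its exon bases are shared with Hoxaas3 on the opposite strand. Hoxc12 had 1.04, 0.883, 1.72 and 2.00 CPM in hypoxia and 0.371, 0.504, 0.866 and 1.43 CPM in normoxia. It was lower in 4 of 4 pairs, although the groups overlapped, and its level varied within both groups.

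Hoxa11, which patterns the lower leg bones, lay at the other side of zero from Hoxa10. It had 11.7, 12.3, 10.5 and 12.7 CPM in hypoxia and 14.6, 13.3, 14.4 and 13.2 CPM in normoxia. The groups did not overlap, but the log2 change of 0.23 (95% interval 0.02 to 0.44, not adjusted for the number of genes) did not pass, with a limma-trend adjusted p of 0.0805. Of its exon bases, 34.98% are shared with Hoxa11os, a transcript of the opposite strand whose log2 change was 0.08, and whether the counting used strand is not stated. Hoxa9, on the other side of Hoxa10 in the cluster, had a log2 change of 0.02 with an interval from -0.22 to 0.26.

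Other abundant members of each cluster had groups that overlapped. Hoxa9 had 13.9, 15.8, 13.7 and 12.7 CPM in hypoxia and 15.8, 12.1, 13.7 and 15.5 CPM in normoxia. Hoxc13 had 12.9, 13.2, 15.1 and 17.3 CPM in hypoxia and 11.3, 12.5, 12.9 and 13.8 CPM in normoxia, lower in 4 of 4 pairs but not past the threshold (limma-trend adjusted p = 0.194). Hoxd10 had 1.92, 2.89, 2.34 and 3.85 CPM in hypoxia and 2.01, 2.59, 2.38 and 3.09 CPM in normoxia. In none of these 3 genes did the samples of a group stand apart from those of the other.

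The remaining tested genes outside the posterior HoxB group included Hoxa3, Hoxa5, Hoxa6, Hoxa13, Hoxb3, Hoxc4, Hoxc5, Hoxc6, Hoxc9, Hoxc11 and Hoxd11. None of these 11 passed in any of the 23 to 26 alternatives in which it was tested, and their limma-trend log2 changes ran from -0.50 (Hoxb3) to 0.42 (Hoxa5). Hoxa2, Hoxa4, Hoxb5, Hoxd4 and Hoxd13, which the filter removed, never exceeded 0.965 CPM.

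In all, 5 of the 28 Hox genes (Hoxa7, Hoxa10, Hoxa11, Hoxc10 and Hoxd8) had groups that did not overlap, against 32.6% of all genes tested. Of the 28, 10 were lower in 4 of 4 pairs (35.7%, against 26.8% of all genes tested) and 4 were higher in 4 of 4 pairs (14.3%, against 27.7%). The 4 were Hoxa5, Hoxa11, Hoxc6 and Hoxc8. Of the 28 intervals, those of Hoxb6, Hoxb7, Hoxb8 and Hoxb9 were the widest, and that of Hoxb9 ran from -1.32 to 0.90 on the log2 scale. These intervals are from the fit without the replicate block. With the block the SE of Hoxb9 was 0.134 in place of 0.511, and the gene did not pass (limma-trend adjusted p = 0.214).

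**Figure D3:**
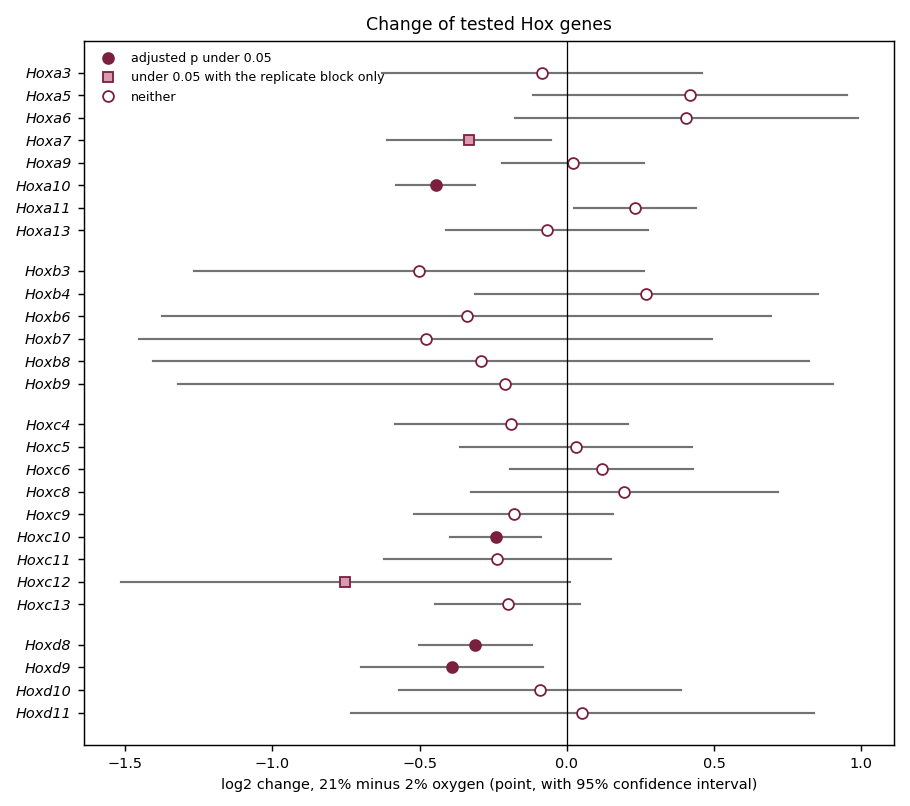
Log2 change of tested Hox genes, normoxia (21% oxygen) minus hypoxia (2% oxygen), as a point with its unadjusted 95% confidence interval, by cluster. Filled circles (Hoxa10, Hoxc10, Hoxd8, Hoxd9) have an adjusted p under 0.05 and lie left of zero, squares (Hoxa7, Hoxc12) pass with the replicate block alone, and the intervals of Hoxb6, Hoxb7, Hoxb8 and Hoxb9 are the widest.

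GC content and scaling bore on these calls. The 4 genes that passed came to 2 when a smooth function of GC content and length was removed from each sample, with Hoxa10 lower (limma-trend adjusted p = 0.000778) and Hoxa11 higher (0.0233), and to 3 with this correction and the replicate block, with Hoxa10, Hoxc10 and Hoxa11 (log2 change 0.33, limma-trend adjusted p = 0.00711). Scaling by total counts alone gave the same pair, Hoxa10 lower and Hoxa11 higher, and moved the share of higher genes among all calls from 52.2% to 69.6%. Hoxd13, which the filter removed, passed as higher in normoxia when no filter was used, at 0.125, 0.160, 0 and 0.308 CPM in hypoxia and 0.297, 0.504, 0.433 and 0.528 CPM in normoxia, which are 0 to 7 counts a sample. Hoxd13 also passed, with the filter kept, when hypoxia replicate 4 was left out. Of the samples left out singly, hypoxia replicate 3 mattered most, since Hoxa10 alone passed without it. In that fit Hoxc10 (limma-trend adjusted p = 0.0535) and Hoxd8 (0.0518) missed the threshold narrowly. Hoxd9 passed without hypoxia replicate 1 and not without any of the other 7 samples.

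Of the 6 tested HoxB genes, 0 passed the test of oxygen by limma-trend, edgeR, DESeq2 or an unadjusted p under 0.05, but 4 differed between replicate numbers, a comparison that was chosen after the values were seen. In a limma-trend F test of the replicate number with the oxygen group in the fit, 5 of 28 Hox genes passed at an adjusted p under 0.05, against 11.1% of all genes tested, and 4 of these 5 lie in HoxB. The edgeR quasi-likelihood F test also gave 5 Hox genes, with 11.7% of all genes passing.

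Hoxb9, the posterior gene of the main HoxB group, had 14.8, 15.1, 6.09 and 2.70 CPM in hypoxia replicates 1 to 4 and 9.80, 11.2, 6.50 and 2.86 CPM in normoxia. The samples numbered 1 and 2 were high at both oxygen levels, and those numbered 4 were the lowest at both. Its mean per number ran from 2.78 to 13.1 CPM, a 4.72-fold range (limma-trend F test, adjusted p = 4.28e-08).

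Hoxb7 had 1.51, 1.85, 0.703 and 0.616 CPM in hypoxia and 1.04, 1.73, 0.361 and 0.301 CPM in normoxia (limma-trend F test, adjusted p = 0.00647). Hoxb6 had means of 0.815, 1.11, 0.487 and 0.153 CPM for numbers 1 to 4 (adjusted p = 0.0148 in the same limma-trend test). Hoxb8 had 0.548, 1.71, 0.730 and 0.266 CPM (adjusted p = 0.0182 in the same limma-trend test). All 4 of these genes were highest in the pair numbered 2 and lowest in the pair numbered 4, and the lowest means of Hoxb6 and Hoxb8 rest on a few counts.

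Hoxc8, of the thoracic and lumbar region, was the fifth such gene, with 17.6, 23.3, 13.04 and 11.1 CPM in hypoxia and 21.7, 25.1, 14.6 and 12.9 CPM in normoxia. It too was highest in the samples numbered 2 and lowest in those numbered 4, a 2.02-fold range of means (limma-trend F test, adjusted p = 7.69e-06). In the same test, Hoxa10 (limma-trend adjusted p = 0.688), Hoxc10 (0.527) and Hoxd8 (0.991) did not pass, and their means per number differed by at most 1.14-fold. Hoxb4 did not pass either (limma-trend adjusted p = 0.31), at 1.88, 2.49, 1.25 and 1.54 CPM in hypoxia and 2.08, 2.81, 2.74 and 1.28 CPM in normoxia.

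**Figure D4:**
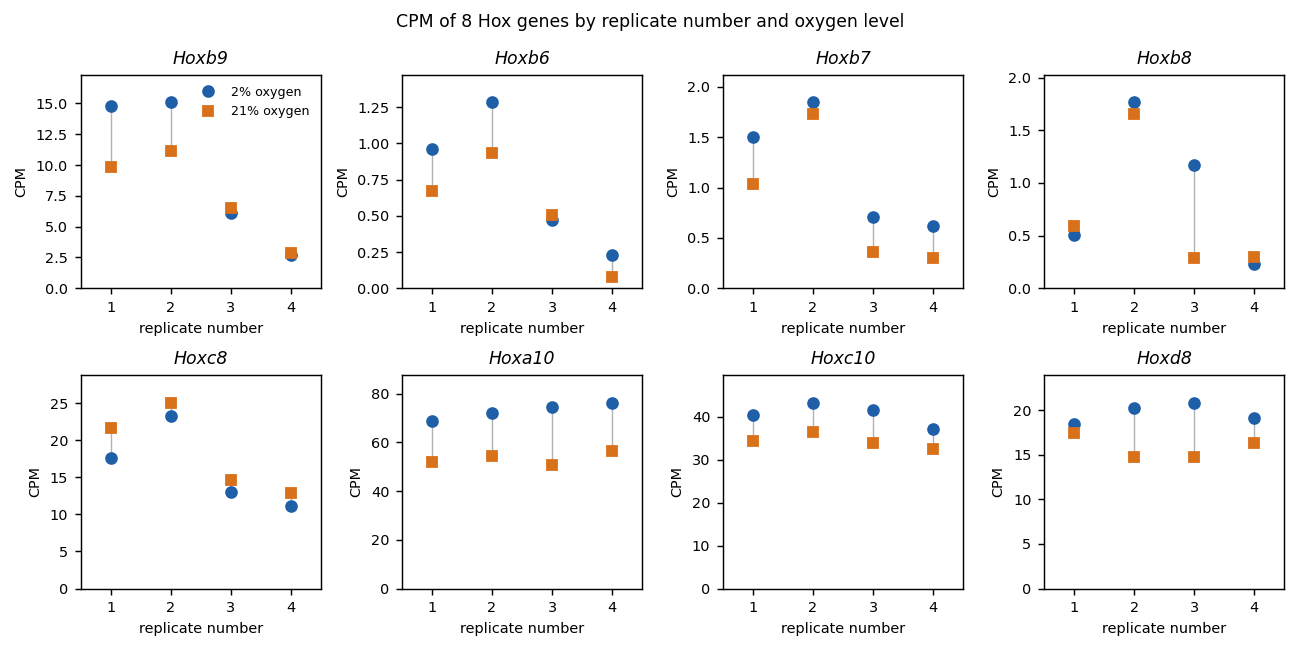
CPM of 8 Hox genes against the replicate number, for 2% oxygen (blue circles) and 21% oxygen (orange squares), with a grey line joining the samples of the same number. Hoxb9, Hoxb6, Hoxb7, Hoxb8 and Hoxc8 change with the number at both oxygen levels, Hoxb9 from 2.78 to 13.1 CPM in the mean, whereas Hoxa10, Hoxc10 and Hoxd8 are split by oxygen.

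The pair numbered 2 decided some of these calls. Without it, Hoxb9 was the only HoxB gene that passed, of 6 tested, and 3 Hox genes passed in all (Hoxb9, Hoxc8 and Hoxc6), while without the pair numbered 4 Hoxb6 was lost (limma-trend adjusted p = 0.264). The shares of all genes that passed in these smaller fits are not given here. Blood and macrophage markers also differed with the number, with sums of 590, 811, 1236 and 971 CPM in hypoxia and 674, 808, 1295 and 948 CPM in normoxia. With all pairs kept, 10 of 10 tested markers of this list passed the F test, against 11.1% of all genes tested. Of the 12 MSC and stromal markers 8 passed it as well. Among them was Thy1, a surface protein of stromal cells, named after its values were seen. Its means of 245, 333, 201 and 190 CPM for numbers 1 to 4 ran in the same order as Hoxb9. Other markers of the list ran in other orders, such as Cxcl12 (805, 1531, 1317 and 1695 CPM) and Cd44 (467, 276, 318 and 261 CPM). The part of either list in the HoxB result was not tested. Of the 28 tested limb and positional factors, 9 passed the F test (32.1%, against 11.1% of all genes tested). Among them was Pitx1, which had 33.3 CPM in hypoxia replicate 2 and 35.4 CPM in normoxia replicate 2, against 44.8 to 67.4 CPM in the other 6 samples.

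Some cofactors of HOX proteins were lower in normoxia. The TALE homeodomain proteins of the PBX, MEIS and PKNOX families bind DNA together with HOX proteins. The list of 10 genes, all tested, held these families and a gene for a PBX-binding protein outside them. Of the 10 genes, 3 fell (30%, against 16.5% of all genes tested) and 0 rose, while 34.6% of all genes passed in either direction. Among these were Pbx2 (log2 change -0.20, limma-trend adjusted p = 0.043) and Pbx3 (-0.29, 0.0386). With the replicate block 6 of 10 fell, against 22.7% of all genes as lower and 46% in either direction, with Meis1, Meis2 and Pknox2 added. Without the filter on low counts 0 passed at an adjusted p under 0.05 (limma-trend). With the filter kept, 5 of 10 had an unadjusted p under 0.05, and edgeR passed 3 and DESeq2 2. With scaling by total counts alone 0 fell and 1 rose, and with GC and length removed Pbx2 did not pass (limma-trend adjusted p = 0.417).

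Among chromatin regulators that keep Hox genes silent or active, the Polycomb genes passed at a share near that of all genes. Polycomb proteins hold Hox genes silent, and of 30 listed 5 rose (Eed, Suz12, Aebp2, Mtf2 and Rnf2) and 5 fell (among them Phf1, Pcgf2, Cbx6 and Phc1), 33.3% in all, against 34.6% of all genes tested. Suz12, a core subunit of the complex that writes H3K27 methylation, had a log2 change of 0.40 (limma-trend adjusted p = 0.00451), and its catalytic subunit Ezh2 had 0.38 and did not pass (0.0624), but passed with the block (0.00268). Of 11 Trithorax-group and related genes, 3 rose (Psip1 by 0.50, Ash1l and Kdm6a) and 2 fell, 45.5% in all, against 34.6% of all genes tested. Kdm6b, a demethylase of H3K27, had the largest change of the 11, at -0.71 (limma-trend adjusted p = 0.000113).

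CTCF and cohesin set the boundaries of chromatin loops within Hox clusters. Of the 7 genes listed for them, 6 rose (85.7%, against 18% of all genes tested). Nipbl, the cohesin loader, had a log2 change of 0.58 and Stag2 of 0.53. With GC, length and the replicate block in the fit, 3 of these 7 passed, against 43.2% of all genes in that fit. Of the 48 chromatin genes together, 21 passed (43.8%) in the fit without a block, against 34.6% of all genes. With GC and length removed 12 passed, and the share of all genes in that fit is not given here. With the block added to this correction 20 of the 48 passed, against 43.2% of all genes.

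Retinoic acid signalling, which induces Hox genes in the embryo, was represented among the regulators upstream of Hox genes, of which 6 of 11 were tested. Cyp26b1, which degrades retinoic acid, fell by 0.79 on the log2 scale (limma-trend adjusted p = 0.000753). The receptors Rara (-0.43), Rarg (-0.34) and Rxra (-0.31) fell as well. Aldh1a2, which makes retinoic acid, had a log2 change of -0.49 and did not pass (limma-trend adjusted p = 0.358), but passed with the block (0.00296). Gdf11, a ligand that sets the trunk-to-tail transition of Hox expression, rose by 0.29. The Cdx genes, which activate central Hox genes in the embryo, did not pass the filter.

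Of 22 tested limb factors, Ptch1, the receptor and target of Hedgehog signalling, rose (log2 change 0.49, limma-trend adjusted p = 0.0125) and Prrx2, a limb mesenchyme homeobox gene, fell (-0.20, 0.0253). Pitx1 (-0.31), Tbx4 (-0.16) and Tbx5 (-0.27) did not pass. With the block 14 of the 28 genes of the whole positional list passed (50%, against 46% of all genes), and 7 without it (25%, against 34.6%). With the block Pitx1 was among them (limma-trend adjusted p = 0.0026). It was not with GC and length removed as well (0.562).

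Genes that lie beside the clusters differed from those within them in how many passed. Of 6 tested noncoding transcripts inside the clusters, 0 passed by limma-trend, edgeR, DESeq2 or an unadjusted p under 0.05, with log2 changes from -0.37 (Hoxd3os1) to 0.08 (Hoxa11os). Of 19 tested flanking genes, 12 passed (63.2%, against 34.6% of all genes), 8 higher and 4 lower in normoxia (against 18% and 16.5% of all genes). On the HoxA side Tax1bp1 rose by 0.85, Snx10 by 0.61 and Skap2 by 0.42, and beside HoxD Nfe2l2, the regulator of oxidative stress genes, rose by 0.59. Beside HoxC, Atp5g2, a subunit of ATP synthase, fell by 0.67 on the log2 scale and Atf7 fell by 0.48. The Hox genes, the transcripts within the clusters and the flanking genes differ in level, and the difference between these shares was not tested.

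**Figure D5:**
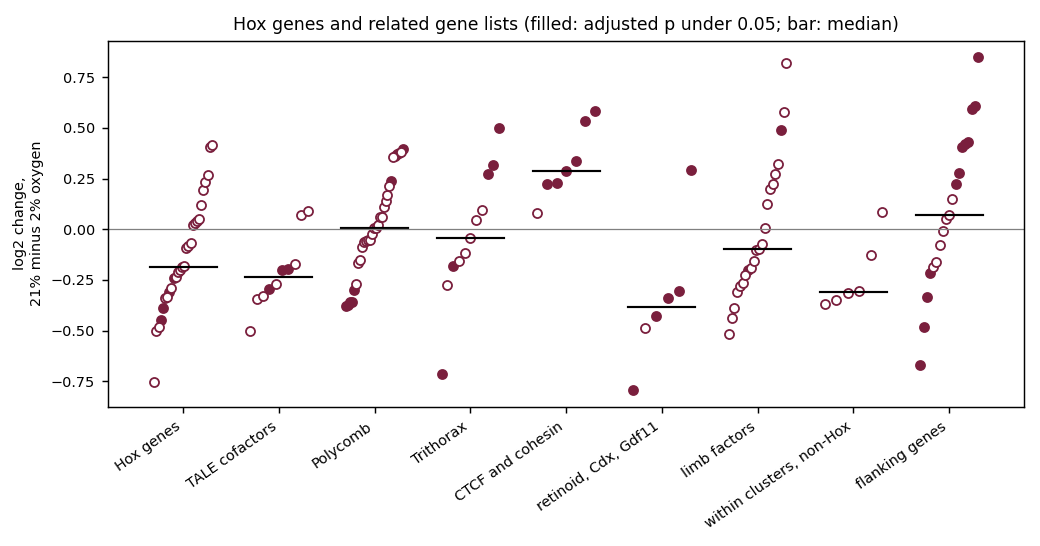
Log2 change, normoxia minus hypoxia, of the tested Hox genes and of 8 related gene lists, a point for each gene, with filled points for an adjusted p under 0.05 and a bar at the median of each list. The 4 filled Hox points are below zero, the filled CTCF and cohesin points are above it, and flanking genes range from -0.67 to 0.85.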

How the data were processed

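RNA-seq was performed on 4 hypoxia and 4 normoxia samples of cultured mouse MSCs. The authors aligned single-end reads to mm10 (GRCm38) with zUMIs and STAR, counted them with featureCounts on an Ensembl annotation and deposited raw counts per gene, which are whole numbers and not normalized. Whether counting used strand is not stated, and 16 of the 39 Hox genes share exon bases with another annotated gene, so reads of such genes are uncertain.

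Symbols and positions were taken from GENCODE M21 for 53360 of 53465 identifiers, those without a symbol holding 0.00364% of the counts. The filterByExpr function of edgeR 4.0.16, at a minimum count of 5, left 14369 genes. TMM-scaled log2 CPM with a prior count of 3, which shrinks the changes of weakly counted genes, were compared with limma-trend (limma 3.58.1, R 4.3.3), with adjustment over all tested genes and a threshold of 0.05. Levels were compared between genes as CPM per kb of the union of exons. The members and gene lists were chosen with earlier results of these data known. Values in every sample are given for members that passed in either fit, blocked or not, and for the 3 most abundant of each cluster per kb, and up to 6 called genes per list with the largest change are named. Further genes were named after their values were seen. The comparison of replicate numbers, and the leaving out of samples numbered 4 or 3 and 4, were added after seeing the data.

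Deviations from the group means were correlated between same-numbered samples, over the tested genes, at 0.47, 0.28, 0.25 and 0.17, and the study describes dividing the sorted cells between conditions, so the numbers were taken as pairs. No 2 samples of a group agreed within sampling noise (lowest chi-square per degree of freedom 3.66 over 12 pairs). The GC and length correction removed a spline with 5 degrees of freedom for each property. Other alternatives were the edgeR quasi-likelihood test, DESeq2 1.42.0, limma-voom, other scalings, filters and prior counts, thinning of hypoxia replicate 1, and leaving out samples. On data simulated for this comparison (14369 genes), limma-trend recovered 84% of genes changed by 1 and 43% of those changed by 0.4 on the log2 scale, with 0.781% false calls, and with the block 88% and 63%, with 7.36% false calls. The F test recovered 96% of changed genes, with 8.57% false calls. Far fewer genes were changed in the simulated data, by oxygen or by replicate number, than passed in the real data. The simulated spread came from the design with the block, so these rates need not hold for the real data. A few genes of the members and lists are counted in the totals but not reported here by name or shown in the plots of levels and changes.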

Additional observations from a re-analysis of the deposited data

Results flagged for a closer look

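In 66 sets of 4 values (log2 CPM of tested Hox genes, sums and depth, within an oxygen group), 6 had an extreme sample whose gap to the nearest of the others, divided by the range, exceeded Dixon's 95% critical value, where about 3.3 such sets come by chance. In hypoxia, replicate 1 had 25132141 counts (gap ratio 0.9762) and the lowest HoxA sum, 112 CPM (0.9263). Hoxa6, at 0.308 CPM, was lowest in hypoxia replicate 4 (0.8295), and Hoxc11, at 7.55 CPM, was highest there (0.8803). In normoxia, Hoxa6, at 0.594 CPM, was lowest in replicate 1 (0.888), and Hoxc9, at 6.78 CPM, was lowest in replicate 4 (0.8464). None of these genes was among those that passed the test between oxygen levels.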

How the results depend on the processing

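No Hox call turned its direction in any alternative. Hoxa10 passed in 25 of 26 alternatives, with log2 changes from -0.48 to -0.36, and missed with the samples numbered 3 and 4 left out (limma-trend adjusted p = 0.0844), where 11 of all tested genes passed. All genes passing came to 3199 with those numbered 4 left out, against 4970. Hox genes passing, 4 in the report, came to 2 with GC and length removed, 2 with total counts only, 2 without the samples numbered 4, 0 without those numbered 3 and 4, and between 1 and 4 with a single sample left out. Cofactors passing, 3 in the report, came to 6 with the replicate block, 5 with GC and length removed with or without the block, 1 with total counts only, 0 without a filter, 0 without the samples numbered 1, 0 without those numbered 3 and 4, and between 0 and 4 with a single sample left out. Chromatin genes, 21 in the report, came to 12 with GC and length removed, 9 without the samples numbered 4 and 0 without those numbered 3 and 4. Cluster neighbours (12) came to 0, and positional factors (7) to 0, without those numbered 3 and 4, and positional factors to 14 with the block and 12 with the block and GC correction. The count of Hox genes that differed by replicate number was between 3 and 6, and of HoxB genes between 1 and 4, with a pair left out, the lowest in each case without pair 2. The causes were not tested, except that fewer samples entered the fits with samples left out. Beside the genes named in the report, the block changed no other Hox call. The 11 Hox genes that were not tested had at most 13 counts in any sample (Hoxa4). Most HoxB genes also had low counts, but Hoxb4 had 16 to 45 and Hoxb9 35 to 353 counts a sample. The part of depth in these results was not tested.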
